A study of Homo sapiens with 6 samples.

Results

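The BTG and TOB genes encode a small family of antiproliferative proteins, and the 5 members BTG1, BTG2, BTG3, TOB1 and TOB2 were taken by symbol from the deposited table, in which they are 5 of 58174 listed genes. All 5 were expressed and passed the filter on low values, a mean of at least 0.5 FPKM (fragments counted per gene length and sequencing depth), as did 16006 genes in all. The libraries were polyA RNA-seq of A549, a human lung adenocarcinoma cell line, harvested 48 h after seeding. Parental A549 cells (Ctrl, 3 libraries) were compared with A549 cells from which the MIR21 locus had been removed by CRISPR/Cas9 (MIR21-KO, 3 libraries). MIR21-KO cells had been transfected with plasmids for Cas9 and guide RNAs and grown from single sorted cells, whereas Ctrl cells were the parental population. How many clones stand behind the 3 libraries is not stated, and properties of a clone and the deletion cannot be told apart. The study describes the samples as independent, and the labels do not say how replicates were obtained. The p-values measure the spread between these libraries.

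Proteins of this family share an N-terminal BTG domain, which binds the deadenylases CNOT7 and CNOT8 of the CCR4-NOT complex, the main machinery that shortens poly(A) tails of mRNAs. TOB1 and TOB2 carry an additional long C-terminal region that contacts the poly(A)-binding protein PABPC1, whereas BTG1 and BTG2 also bind the arginine methyltransferase PRMT1. When overexpressed, the members slow entry into the cell cycle, and BTG2 and BTG3 are known to be induced by DNA damage.

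The deleted gene produces miR-21-5p, and a microRNA recognises mRNAs mainly by its seed, bases 2 to 8. It is shown with the seed in capitals because the seed defines the letters that were searched in the 3′ UTRs of the members (RefSeq, GRCh38.p14, chr17:59841273-59841294, plus strand).
miR-21-5p: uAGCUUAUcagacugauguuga

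The longest 3′ UTR of each member in GENCODE 29 (GRCh38) was searched on the mRNA strand for ATAAGCT, the full complement of the seed (7mer-m8), for TAAGCTA (7mer-A1), for ATAAGCTA, which contains both (8mer), and for TAAGCT, which lies within all of them (6mer). The matches are given with their upstream bases, with the matching letters in capitals, and a match describes the sequence only.
BTG1, 7mer-m8, chr12:92142621-92142642, minus strand: tacataaaaatcacATAAGCTg
BTG2, 7mer-A1, chr1:203309462-203309483, plus strand: gtagtagtatgtttgTAAGCTA
BTG2, 6mer, chr1:203308001-203308022, plus strand: tgattcctactgtccTAAGCTg
TOB1, 6mer, chr17:50862890-50862911, minus strand: gagaattttttttttTAAGCTt

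BTG1 and BTG2 thus held 1 match of 7 bases each, TOB1 held only a 6mer, and the searched letters were not present in the 3′ UTRs of BTG3 and TOB2. The BTG1 match began at base 1452 of a 3′ UTR of 3802 bases. The 7-base match of BTG2 began at base 2039 of 2164, and that of TOB1 at base 84 of 757. Such matches are common: among 11655 3′ UTRs of tested protein-coding genes, 29.45% held a 6mer or better and 15.14% a match of at least 7 bases. Of 3′ UTRs within 20% of the length of BTG1's, 17.9% held a 7mer-m8 or 8mer and 25.5% a match of at least 7 bases. Of those near BTG2 in length, 16.5% held a 7mer-A1 or better, and of those near TOB1, 11.2% held a 6mer or better. Near TOB2's length of 2819 bases, 42.3% held some match, and near BTG3's 440 bases 4.9% did.

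**Figure D1:**
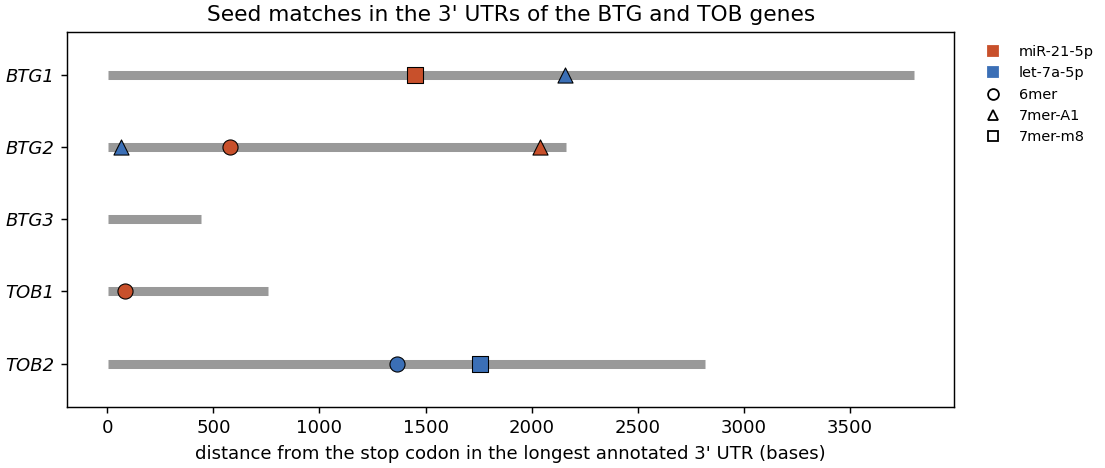
Positions of seed matches to miR-21-5p (red) and let-7a-5p (blue) along the longest annotated 3′ UTR of each member, in bases from the stop codon. Circles are 6mers, triangles 7mer-A1 and squares 7mer-m8 matches. Matches of 7 bases to miR-21-5p are seen in BTG1 and BTG2.

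The same search was made for let-7a-5p, a microRNA with another seed. Its level was not analysed here, and it does not stand for an unaffected microRNA. The search found a 7-base match in BTG1, BTG2 and TOB2 and none in BTG3 and TOB1. Of 3′ UTRs near them in length, 34.1%, 19.9% and 14.8% held a match at least as good. The TOB2 match to CTACCTC, the complement of its seed, is shown because it lies in a member without a miR-21-5p match.
let-7a-5p: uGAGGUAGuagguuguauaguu
TOB2, 7mer-m8, chr22:41434545-41434566, minus strand: agtaggcaccagctCTACCTCc

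Other letters that mark binding elements in 3′ UTRs were unevenly spread. The Pumilio element TGTANATA, searched on the mRNA strand, was found 4 times in BTG1 and in none of the other members. Only 1.9% of 3′ UTRs of similar length held it as often, and 47.4% held it at all. The AU-rich pentamer ATTTA occurred 5 times in BTG1, 2 times in BTG2, 3 times in BTG3, 4 times in TOB1 and 3 times in TOB2. In the short 3′ UTRs of BTG3 and TOB1 this was above the medians of 0 and 1 for 3′ UTRs of their length, of which 6.4% and 10.2% held as many. BTG1, BTG2 and TOB2 were below the medians of 7, 4 and 5 for their lengths.

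Sequencing depth was similar in both groups, with 10631667 to 14345209 recovered reads per library. On a transcript of 1 kb, 1 read was worth 0.0731 to 0.0930 FPKM. MIR21 was listed at 0 in all 6 libraries, so that the deletion could not be checked from these polyA libraries. All 37 mitochondrial genes were also listed at 0 in every library, for a reason that is not given. Markers of the A549 line (ALDH1A1, AKR1B10, AKR1C1 and AKR1C2) summed to 3268 to 3357 FPKM in Ctrl and 3550 to 3714 in MIR21-KO. The higher sum came from ALDH1A1 (2014 ± 20.4 and 2774 ± 16.03 FPKM, n = 3 each). It was higher without overlap, with an FDR of 0.012 (limma), and was called in 8 of 20 settings. The other 3 were lower in MIR21-KO without overlap, and AKR1C2 was called lower (log2 fold change −1.35, FDR 0.000381, limma). Of all tested genes, 22.8% were higher and 25.2% lower without overlap, and 16.0% were called. The 6 epithelial markers summed to 1684 to 1807 and 1217 to 1745 FPKM. Among them EPCAM was low at 0.389 to 1.65 FPKM, and CDH1 fell (log2 fold change −1.48, FDR 0.000175 by limma). Leukocyte markers (3.25 to 3.80 and 3.19 to 5.12 FPKM, with CD3E listed at 0 in all libraries), endothelial markers (0 to 0.0707 and 0.0123 to 0.0421) and fibroblast markers (3.51 to 3.71 and 3.98 to 5.23), 3 genes each, were low. The part of these marker differences in the results was not tested. In cultures of this kind, fewer cells with a transcript and less RNA per cell cannot be told apart.

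BTG1 and BTG2 rose in MIR21-KO cells, BTG1 by 2.27-fold and BTG2 by 1.51-fold. BTG3 and TOB1 lay within overlapping ranges, and TOB2 was slightly above Ctrl without passing the test. Thus 2 of 5 members were called higher and 0 lower at an FDR under 0.01 (limma, Benjamini-Hochberg over all tested genes), where 16.0% of all tested genes were called, 7.66% higher and 8.38% lower. At an unadjusted p under 0.05, likewise 2 members were higher and 0 lower, where 6910 of 16006 tested genes passed (limma). With voom on recovered reads also 2 members were called higher and 0 lower, beside 1535 higher and 1979 lower over all tested genes. Ranges of the groups did not overlap for 3 members, all higher in MIR21-KO, and this was true of 48.1% of tested genes, 22.8% higher and 25.2% lower. The median log2 fold change of the members was 0.16, beside −0.02 over all tested genes.

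**Figure D2:**
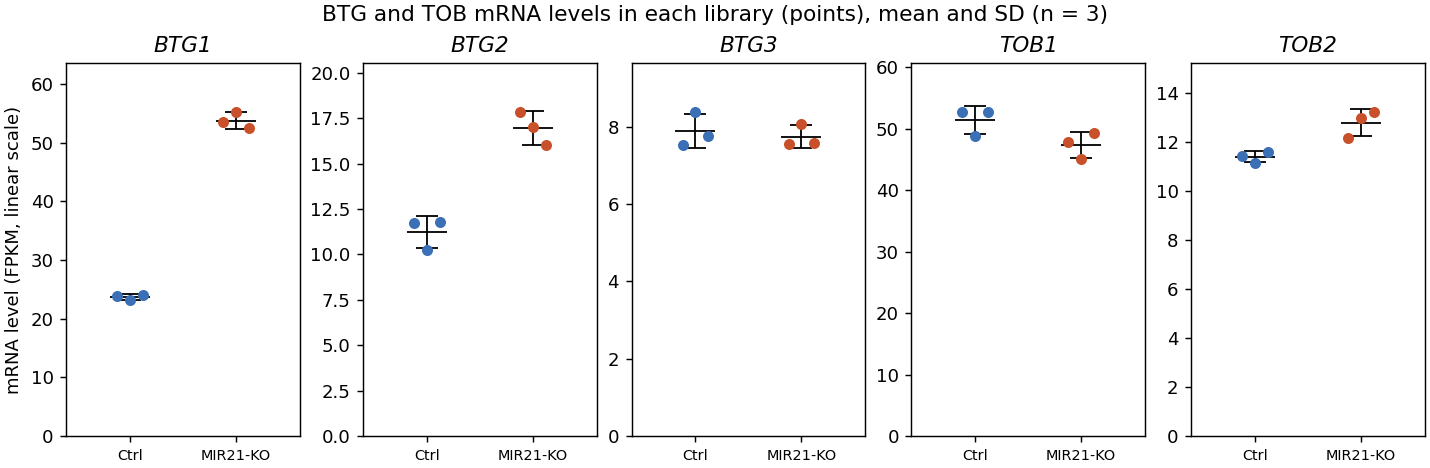
mRNA level (FPKM, linear scale from 0, own scale per gene) of the 5 members in each library. Points are libraries, bars the mean with the SD of 3 libraries. The Ctrl and MIR21-KO points are clearly apart for BTG1 and BTG2, close but separate for TOB2, and overlapping for BTG3 and TOB1.

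BTG1 (ENSG00000133639, chr12:92140278-92145897, minus strand), an antiproliferative cofactor abundant in quiescent cells, was measured at 23.9, 23.2 and 24.1 FPKM in Ctrl and at 53.5, 55.2 and 52.5 FPKM in MIR21-KO. The groups were far apart, and the libraries within each group differed by little. Mean levels were 23.7 ± 0.478 and 53.8 ± 1.39 FPKM (SD, n = 3 each), a log2 fold change of 1.18 ± 0.064 (SE; 95% interval 1.02 to 1.33) with an FDR of 9.51e-05 (limma). Of all tested genes, 5.37% had a log2 fold change at least as high. Among 11719 tested protein-coding genes, the level of BTG1 stood at percentile 83.7 in Ctrl and 93.8 in MIR21-KO. The value rests on 1210 to 3537 reads per library, and BTG1 was called in 20 of 20 settings.

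BTG2 (ENSG00000159388, chr1:203305491-203309602, plus strand), an immediate early gene induced by growth factors and DNA damage, was at 11.7, 10.2 and 11.8 FPKM in Ctrl and at 17.9, 17.01 and 16.02 FPKM in MIR21-KO. The lowest MIR21-KO library was above the highest Ctrl library. The means of 11.2 ± 0.888 and 16.96 ± 0.921 FPKM gave a log2 fold change of 0.59 ± 0.088 (SE; 95% interval 0.38 to 0.80; limma FDR 0.00351), which 15.6% of tested genes reached or exceeded. With 303 to 671 reads per library the call was less firm than for BTG1. It held in 15 of 20 settings, and the limma FDR was 0.0160, 0.0159 and 0.0160 without Ctrl replicate 1, 2 and 3, 0.0230 without MIR21-KO replicate 2 and 0.0226 with a block on replicate number. The log2 fold change stayed between 0.52 and 0.63 in all settings.

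BTG3 (ENSG00000154640, chr21:17593653-17612947, minus strand), the least abundant member, was at 7.53, 8.39 and 7.77 FPKM in Ctrl and at 7.54, 8.08 and 7.59 FPKM in MIR21-KO. The ranges overlapped almost entirely. The log2 fold change was −0.03 ± 0.082 (SE; 95% interval −0.22 to 0.17; FDR 0.821, limma), from 208 to 245 reads per library.

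TOB1 (ENSG00000141232, chr17:50862223-50867978, minus strand), named as a transducer of ERBB2 and known to restrain SMAD signalling, was at 52.8, 48.9 and 52.7 FPKM in Ctrl and at 47.9, 45.1 and 49.3 FPKM in MIR21-KO. The highest MIR21-KO library lay above the lowest Ctrl library. The means were 51.5 ± 2.24 and 47.4 ± 2.14 FPKM, with a log2 fold change of −0.12 ± 0.074 (SE; 95% interval −0.29 to 0.06; FDR 0.267, limma) and 1325 to 1818 reads per library. A rise of the size seen for BTG1 or BTG2 lies outside this interval.

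TOB2 (ENSG00000183864, chr22:41433492-41447023, minus strand), the closest relative of TOB1, was at 11.4, 11.2 and 11.6 FPKM in Ctrl and at 12.2, 13.0 and 13.2 FPKM in MIR21-KO. The groups did not overlap, but the difference was small and did not pass the test (log2 fold change 0.16 ± 0.071 SE, 95% interval −0.0045 to 0.33, FDR 0.124, limma, 548 to 784 reads).

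The order of the members by level, where FPKM is per length of all annotated exons of a gene, differed at the top. In Ctrl cells TOB1 was highest, followed by BTG1, TOB2, BTG2 and BTG3, where only TOB2 and BTG2 overlapped in range. In MIR21-KO cells BTG1 was highest, then TOB1, BTG2, TOB2 and BTG3, and no neighbours overlapped. The share of BTG1 in the summed FPKM of the 5 members was 22.4% in Ctrl and 38.8% in MIR21-KO, and that of TOB1 48.7% and 34.2%. BTG2 accounted for 10.6% and 12.2%, TOB2 for 10.8% and 9.23% and BTG3 for 7.47% and 5.58%.

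**Figure D3:**
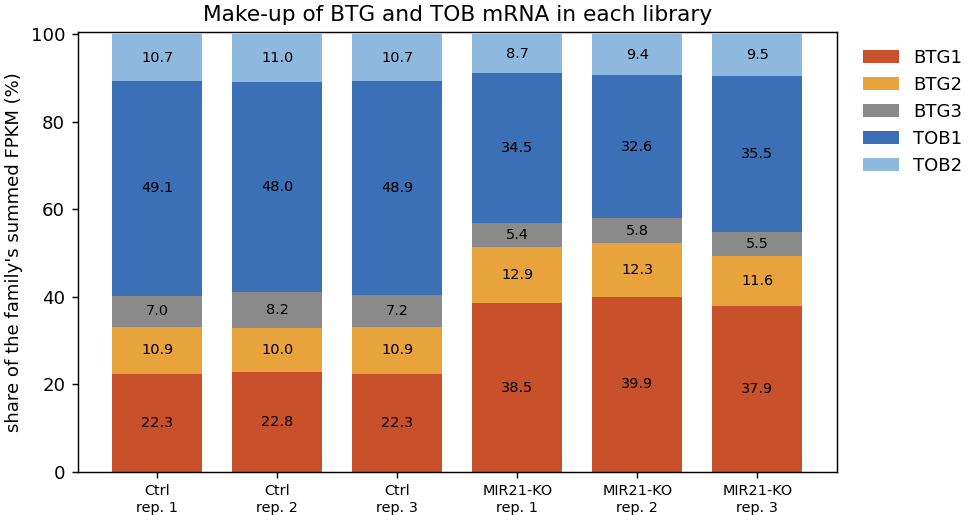
Share of each member in the summed FPKM of the family (%), per library. TOB1 is the largest share in the 3 Ctrl libraries and BTG1 in the 3 MIR21-KO libraries.

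Summed over the 5 members, the family was at 107.4, 101.8 and 107.9 FPKM in Ctrl and 138.9, 138.4 and 138.7 FPKM in MIR21-KO, a log2 difference of 0.39 (exact permutation test, two-sided, p = 0.1, the smallest that 3 against 3 libraries can give). Most of this difference was BTG1. Without it the sums were 82.0 ± 2.92 and 84.9 ± 1.56 FPKM (n = 3 each; exact permutation p = 0.3). The BTG genes together went from 42.9 ± 0.957 to 78.5 ± 2.14 FPKM (exact permutation p = 0.1, n = 3 each) and the TOB genes from 62.9 ± 2.45 to 60.2 ± 2.23 FPKM (exact permutation p = 0.3).

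Ratios between members were compared within each library. All 10 pairs were examined, and for 9 of 10 the log2 ratios of the groups did not overlap. The pairs share members and most hold BTG1 or BTG2, so they are not independent results. How often ratios of other gene pairs are apart was not computed. With 3 libraries per group no pair can reach a p under 0.05 in the exact permutation test. Each of the 9 had an exact permutation p of 0.1, and 0.111 after Benjamini-Hochberg adjustment over the 10 pairs. The 95% intervals given here come from another method, a pooled-variance t interval, and are not adjusted over the pairs. The log2 ratio of BTG1 to each other member was higher in MIR21-KO, by 1.29 (95% interval 1.12 to 1.47) to TOB1, 1.20 (1.03 to 1.38) to BTG3, 1.01 (0.89 to 1.13) to TOB2 and 0.59 (0.41 to 0.77) to BTG2. The ratio of BTG2 was higher by 0.71 (0.50 to 0.92) to TOB1, 0.62 (0.27 to 0.96) to BTG3 and 0.43 (0.16 to 0.69) to TOB2. That of BTG3 to TOB2 differed by −0.19, with an interval (−0.39 to 0.0036) that reached 0. The log2 ratio of TOB1 to TOB2 changed by −0.28 (−0.44 to −0.12). The ratio of BTG3 to TOB1 overlapped between groups (0.09, −0.20 to 0.38, exact permutation p = 0.5).

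Some transcripts overlap the members or resemble them. An antisense gene at the 5′ end of BTG1, listed as RP11.796E2.4 (AC025164.1 in GENCODE 29, ENSG00000245904), shares 325 exonic bases with it on the opposite strand. It was at 0.921, 0.784 and 0.819 FPKM in Ctrl and at 1.89, 1.61 and 2.13 FPKM in MIR21-KO. This antisense transcript thus also rose, from a far lower level than BTG1 (log2 fold change 1.07 ± 0.174 SE, FDR 0.00489, limma, range over settings 0.00117 to 0.0273). Libraries were strand-specific, but the strand setting of the counting is not given, and without strand the reads of both genes cannot be told apart in the shared bases. LINC01619 overlaps BTG1 by 503 exonic bases on the same strand and was at 0.0255 to 0.241 FPKM, too low to be tested. TOB1-AS1 shares 281 exonic bases with TOB1 and was at 0.804, 0.303 and 0.817 FPKM in Ctrl and 1.13, 1.29 and 1.18 FPKM in MIR21-KO (FDR 0.0983, limma). BTG3-AS1 was at 0.0361 to 0.255 FPKM. The pseudogenes BTG1P1, BTG3P1 and BTG4P1 were listed at 0, TOB2P1 was at 0.295 to 1.58 FPKM, and BTG4, the remaining human BTG gene, was at 0 to 0.262 FPKM.

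Among the deadenylation genes PAN2 rose, and the others did not pass the test. Of 16 listed genes of the CCR4-NOT and PAN2-PAN3 complexes, poly(A)-binding proteins and PARN, 1 was called higher and 0 lower (limma; at an unadjusted p under 0.05, 1 higher and 6 lower; voom called 1 higher and 2 lower). The median log2 fold change was −0.17, and 12 of 16 values were negative. Ranges did not overlap for 4 genes that were higher and 8 that were lower in MIR21-KO. Over all tested genes 16.0% were called, and ranges did not overlap for 22.8% that were higher and 25.2% that were lower. An unadjusted p under 0.05 was reached by 6910 of 16006 tested genes (limma), and voom called 1535 higher and 1979 lower.

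The called gene was PAN2, a subunit of the complex that starts tail shortening, which was at 2.75, 2.40 and 2.90 FPKM in Ctrl and at 4.99, 5.29 and 4.70 FPKM in MIR21-KO. All MIR21-KO libraries were above Ctrl (log2 fold change 0.87 ± 0.114 SE; FDR 0.0021, limma, over settings 0.000458 to 0.0196). The direct partners of the BTG domain, chosen for naming with their values known, did not pass the test as reported. CNOT7 had 11.6, 11.4 and 11.6 FPKM in Ctrl and 7.32, 8.23 and 9.35 FPKM in MIR21-KO, a log2 difference of −0.48 (limma FDR 0.0134). It was lower in every MIR21-KO library and was called lower in 4 of 20 settings (FDR 0.00322 to 0.0784). With a mean of at least 5 FPKM required, which leaves PAN2 out, the count was 0 higher and 1 lower, CNOT7 (limma FDR 0.00937). In that setting 765 of 7551 tested genes were called higher and 1188 lower. CNOT8 was at 13.1 ± 1.07 and 14.3 ± 0.338 FPKM (FDR 0.306, limma). PABPC1, the partner of TOB proteins, was at 200.3 ± 2.04 and 223.9 ± 11.9 FPKM (FDR 0.174, limma).

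The count of called deadenylation genes depended on single libraries, as did calls over all tested genes. The list's count was 0 without Ctrl replicate 1, Ctrl replicate 2 or MIR21-KO replicate 2, and 4 (1 higher, 3 lower) without MIR21-KO replicate 3. Over all 16006 tested genes, calls in these fits were 895, 922, 768 and 3400, beside 2568 as reported. With trends on GC content and gene length removed, 1 listed gene was higher and 3 were lower, beside 1810 and 2130 over all tested genes.

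**Figure D4:**
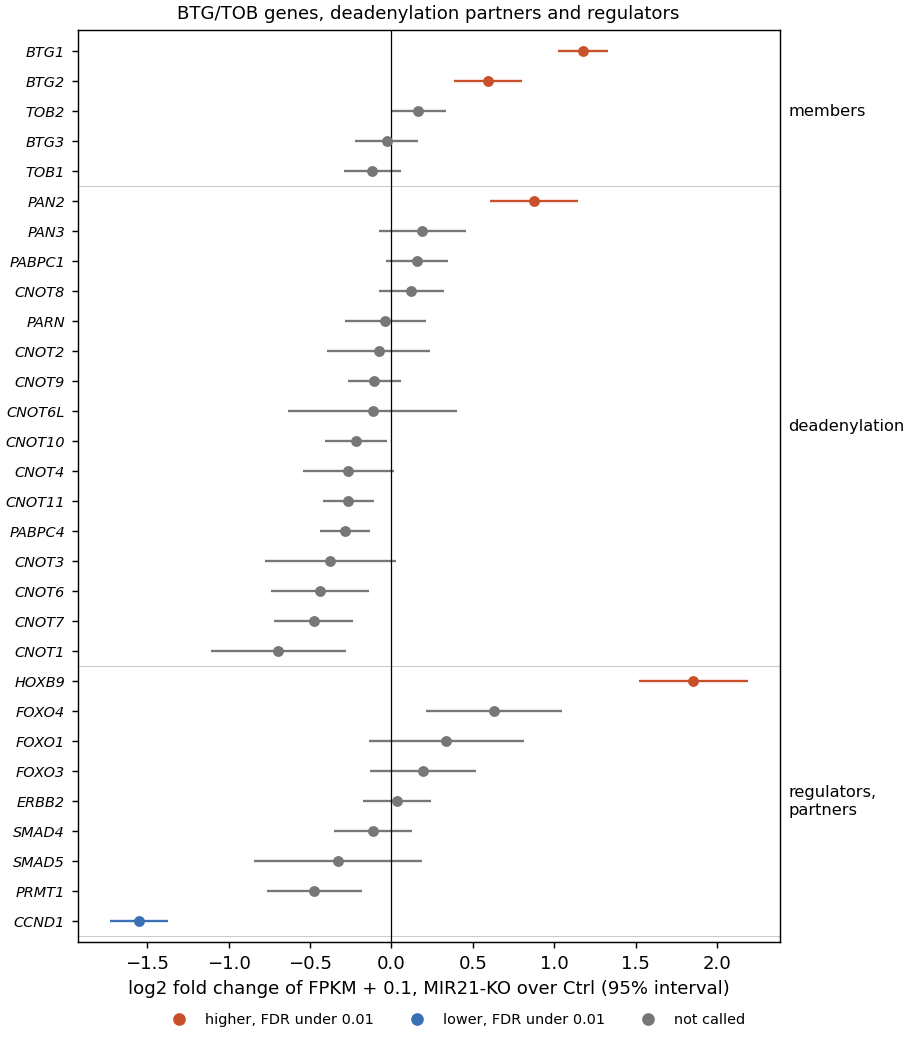
log2 fold change (MIR21-KO over Ctrl, on log2(FPKM + 0.1)) of the members, of 16 deadenylation genes and of 9 regulators and partners, with 95% intervals from limma. Red marks genes called higher, blue genes called lower and grey genes not called at an FDR under 0.01. BTG1, BTG2, PAN2 and HOXB9 were called higher and CCND1 lower.

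Of 9 regulators and partners, 1 was called higher, 1 lower and 7 were not called (limma), where 16.0% of all tested genes were called. At an unadjusted p under 0.05 in limma, 2 were higher and 2 lower, where 6910 of 16006 tested genes passed. Calls by voom were 1 higher and 2 lower, beside 1535 higher and 1979 lower over all tested genes. Ranges did not overlap for 2 higher and 2 lower genes, beside 22.8% and 25.2% of all tested genes. HOXB9, a homeobox factor that BTG1 and BTG2 are known to bind, was at 9.04, 10.2 and 6.997 FPKM in Ctrl and at 31.3, 33.3 and 29.99 FPKM in MIR21-KO. It rose by 1.85 on the log2 scale (SE 0.140, limma FDR 0.000295). CCND1, the cyclin D1 gene whose expression BTG2 and TOB1 are known to reduce when overexpressed, was at 81.9, 75.9 and 78.1 FPKM in Ctrl and at 25.0, 27.4 and 27.9 FPKM in MIR21-KO. It fell by 1.55 on the log2 scale (SE 0.076, FDR 6.44e-05, limma). Both calls held in 20 of 20 settings.

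The other regulators were closer to Ctrl. PRMT1 was at 91.4 ± 2.84 and 66.3 ± 10.5 FPKM (n = 3 each, log2 fold change −0.47, FDR 0.0265, limma). It was lower in every MIR21-KO library and was called lower in 5 of 20 settings (limma and voom FDR 0.000981 to 0.0895). The forkhead factors FOXO4, FOXO1 and FOXO3, of which FOXO3 is a known activator of BTG1, had log2 fold changes of 0.63 (FDR 0.0333), 0.34 (0.241) and 0.19 (0.325) in limma. ERBB2 (0.04, FDR 0.785), SMAD4 (−0.11, FDR 0.432) and SMAD5 (−0.33, FDR 0.291) did not pass limma's test.

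As BTG2 and BTG3 respond to DNA damage, 26 other genes of the DNA damage and stress response were examined. They were picked as textbook target genes of p53. Of these, 5 were called higher, 3 lower and 18 were not called (limma), with a median log2 fold change of 0.13. Scaled by total reads, 2 were called higher and 3 lower, beside 1177 higher and 1541 lower of 16006 tested genes. Ranges did not overlap for 11 higher and 5 lower genes. Over all tested genes, 7.66% were called higher and 8.38% lower, and ranges were apart for 22.8% higher and 25.2% lower. Called genes of the list thus went in both directions. Among the called genes the 3 largest rises were TP53I3, a quinone oxidoreductase (67.0 ± 2.55 to 171.5 ± 21.0 FPKM, log2 fold change 1.35, FDR 0.00035, limma), GADD45A, a growth arrest gene (20.3 ± 1.85 to 34.1 ± 4.03 FPKM, 0.74, FDR 0.00399), and SESN1, an inhibitor of mTORC1 signalling (4.45 ± 0.276 to 6.85 ± 0.851 FPKM, 0.60, FDR 0.00863).

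The 3 falls were GDF15, a stress cytokine of the TGF-beta family (38.1 ± 2.20 to 13.6 ± 3.92 FPKM, log2 fold change −1.52, FDR 0.00227, limma), AEN, an apoptosis enhancing nuclease (26.6 ± 1.32 to 16.4 ± 0.737 FPKM, −0.69, FDR 0.001), and TIGAR, a regulator of glycolysis (15.2 ± 0.732 to 10.3 ± 0.578 FPKM, −0.57, FDR 0.00278). CDKN1A, the gene of the cell cycle inhibitor p21, named with its values known, was at 90.2 ± 2.77 and 109.3 ± 11.5 FPKM and did not pass the test (0.27, FDR 0.0736, limma). The number of called stress response genes fell to 2, 1 in each direction, without any Ctrl library in turn or without MIR21-KO replicate 2. It was 12 (9 higher, 3 lower) without MIR21-KO replicate 3. With trends on GC content and gene length removed, 8 were higher and 3 lower.

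**Figure D5:**
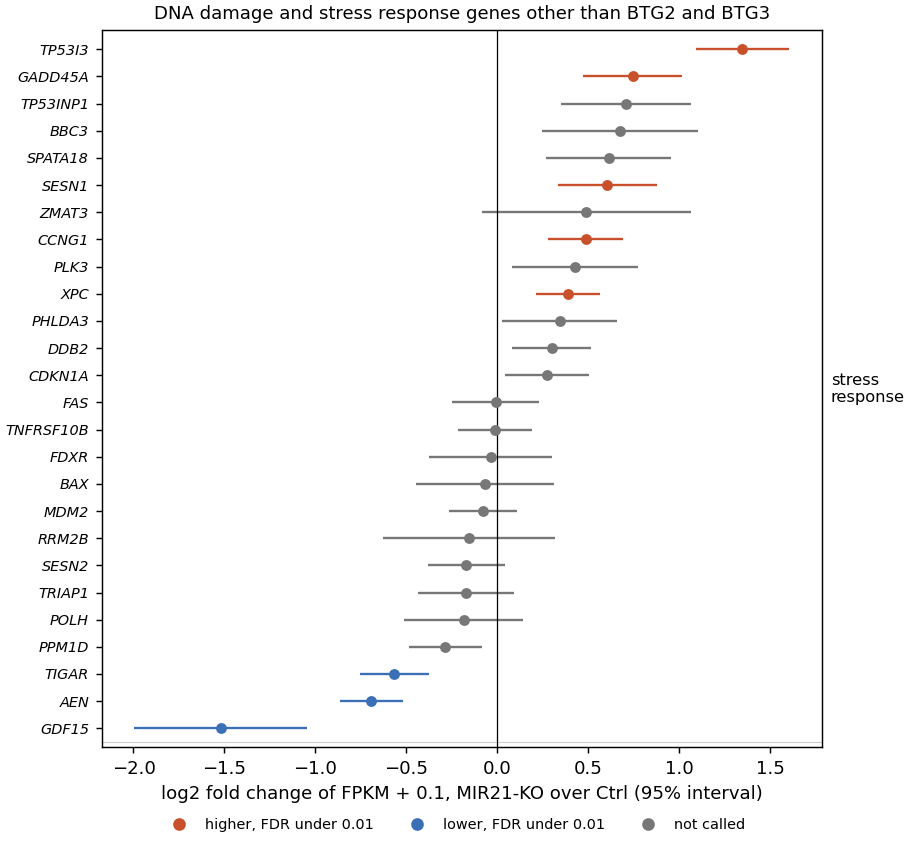
log2 fold change (MIR21-KO over Ctrl, on log2(FPKM + 0.1)) of 26 DNA damage and stress response genes with 95% intervals from limma, in the colours of the plot of partners. The 5 genes called higher and the 3 called lower lie on both sides of 0.

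VMP1, the autophagy gene whose annotated span (chr17:59707192-59842255) contains the MIR21 locus, was at 75.1 ± 3.83 FPKM in Ctrl and 142.5 ± 7.18 FPKM in MIR21-KO, a log2 difference of 0.92 (limma FDR 0.000473).

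The genes most like each member across the 6 libraries, by Pearson's r of log2(FPKM + 0.1) among 6797 protein-coding genes of at least 5 FPKM, are given as a description, since all points share the same libraries and the step between the groups. For BTG1 they were ATP13A2 (r = 0.9999), ALDH1A1 (0.9998) and ABLIM3 (0.9995), and 161 genes had an r above 0.99. For BTG2 they were CSRNP1 (0.9969), TSC22D3 (0.9943) and VTN (0.9942), with 13 genes above 0.99. TOB2 was closest to PACS1 (0.9952), DSE (0.9905) and HGSNAT (0.989). The members with little difference between groups had weaker neighbours, CRCP (0.9559), MRI1 (0.9264) and TOX4 (0.9164) for BTG3, and NANP (0.9654), RASSF3 (0.9608) and RAPGEF1 (0.9583) for TOB1.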

How the data were processed

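Per the labels, polyA RNA was made into strand-specific libraries and sequenced on an Illumina HiSeq. The submitters' processing notes name cutadapt 1.14, HISAT2 2.1.0, SAMtools 1.5, featureCounts 1.5.3, edgeR 3.18.1 and the build hg38. The annotation release, strand setting and handling of shared reads are not given in the sources used here. The authors deposited FPKM values per library, together with columns of their own comparison (log2 fold change, p-value, FDR), which were not used.

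FPKM times length were whole multiples of the value of 1 read for 100% of values (tolerance 0.05), and reads were recovered. The test was limma 3.58.1 (R 4.3.3) after log2 transformation of FPKM plus 0.1, for genes averaging 0.5 FPKM or more (eBayes with trend and robust fitting, two-sided, Benjamini-Hochberg, FDR under 0.01), which understates changes of low genes. voom on recovered reads was an alternative. The code was tested on simulated data. Sums and ratios of members were compared by exact permutation tests in scipy 1.17.1. GENCODE 29 matched 57836 of 58174 genes by identifier (99.42%), and GC content was available for 15955 of 16006 tested genes (99.68%). Gene lengths of the 5 members in the table equalled the exon lengths in GENCODE 29.

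Groups and replicate numbers came from the sample titles. No pair of libraries agreed within sampling noise. The chi-square per degree of freedom between recovered reads was 2.585 to 4.915 within Ctrl and 7.052 to 29.57 within MIR21-KO. Members and lists were chosen with earlier results of these data known. Some genes of the lists are not reported here. Named were the members, overlapping and related genes, the regulators, MIR21 and VMP1, called genes of the deadenylation and stress response lists (the 3 largest rises and falls where more than 6 were called) and the 3 genes most correlated with each member.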

Additional observations from a re-analysis of the deposited data

How the results depend on the processing

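As reported and in 15 alternatives, 2 members were called. With the replicate number as a block only 1 member (BTG1) was called, and the range over fits leaving out a library in turn was 1 to 2. The called deadenylation genes numbered 1 as reported, 3 with voom, 3 with protein-coding genes only, 4 with GC and length trends removed, 6 at an FDR under 0.05, 0 to 4 when a library was left out and 0 with the replicate block (limma; 1 higher and 5 lower at an unadjusted p under 0.05). The called DNA damage and stress response genes numbered 8 as reported, 5 without a filter on low values, 5 when scaled by total reads, 4 without trend or robust fitting, 13 at an FDR under 0.05, 2 to 12 when a library was left out and 2 with the replicate block. Calls over all 16006 tested genes were 2568 as reported, 3514 with voom, 3940 with GC and length trends removed and 2718 when scaled by total reads. They were 1946 without trend or robust fitting and 768 to 3400 when a library was left out. At an FDR under 0.05, 2428 were higher and 2686 lower. Protein-coding genes alone gave 3253 of 11719, and no filter on low values 1810 of 29384. With the block, 5898 had an unadjusted p under 0.05 (limma). The replicate numbers did not pair the libraries (same-numbered libraries had correlations of deviations of −0.171, −0.0177 and −0.0174), and the block took all calls from 2568 to 651. BTG3, not called, changed sign to 0.0105 with GC and length trends removed, with or without the block, and to 0.0158 without Ctrl replicate 2 (−0.0611 to 0.0158 when a library was left out). BTG1, TOB1 and TOB2 kept direction and side of the threshold in all 19 alternatives. The log2 difference of the summed level was 0.365 to 0.407 when a library was left out, 0.355 when scaled by total reads and 0.449 with GC and length trends removed. The pairs apart numbered 9 to 10 when a library was left out and 8 with GC and length trends removed. With the block, pairs were counted whose differences between same-numbered libraries all had the same sign. This looser count gave 10 and does not mean that the groups were apart. Settings of limma and voom have no bearing on the summed level and the ratios. Depth limits BTG3 most, with 208 to 245 reads per library.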

Other observations

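The family was compared with the deadenylases that bind the BTG domain. The summed FPKM of the 5 members was 4.29 ± 0.0698 times that of CNOT7 and CNOT8 together in Ctrl (SD, n = 3; 4.24, 4.37 and 4.26) and 6.15 ± 0.281 times in MIR21-KO (6.47, 6.05 and 5.94). The groups did not overlap (exact permutation test, two-sided, p = 0.1, the smallest possible with 3 against 3 libraries). The measure was chosen after values were seen. It is a ratio of RNA levels, not of proteins. Its size also depends on the gene lengths used for FPKM, which were 10943 bases for CNOT7, 3930 for CNOT8 and 4854 for BTG1. Without BTG1 the members summed to 82.0 ± 2.92 FPKM in Ctrl and 84.9 ± 1.56 in MIR21-KO, so most of the rise in their sum was BTG1. The sum of CNOT7 and CNOT8 itself was 24.7 ± 1.18 and 22.6 ± 0.978 FPKM, with overlapping ranges (exact permutation p = 0.2, n = 3 each).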
